A study of Mus musculus with 12 samples.

Results

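The excitatory postsynaptic density is held together by scaffold proteins, and the transcripts of 9 of them were followed here through neuronal differentiation: Dlg1, Dlg2, Dlg3 and Dlg4 of the membrane-associated guanylate kinase family, Shank1, Shank2 and Shank3, and Homer1 and Homer2. They were taken by gene symbol, and all 9 were present among the 22609 genes of the count table and among the 34993 genes of the FPKM table. The cells were mouse adherent neural stem (ANS) cells derived from embryonic brain at E14.5, which grow as a proliferating monolayer and can be directed towards GABAergic neurons. PolyA+ RNA was sequenced in 12 libraries, described by the submitters as biological replicates, with no statement on whether they came from separate derivations.

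T0 was the proliferating culture in growth medium with FGF2 and EGF, each at 20 ng/ml (3 libraries). T1 was taken 2 days after the change to medium D1, in which FGF2 was lowered to 10 ng/ml and EGF to 2 ng/ml (3 libraries). T2 was taken 2 days after the later change to medium B, which held FGF2 at 10 ng/ml, BDNF at 20 ng/ml and no EGF (4 libraries). T3 was taken 10 days after that change, in the same medium, and carried the label GAD+ (2 libraries, numbered 1 and 4). The study's own account can also be read as 10 further days after T2, and the deposited column of T3 replicate 4 also carries a 2 that the labels do not explain. FGF2 was therefore present in every group, and medium, plating and time changed together.

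In a mature excitatory synapse the Dlg proteins lie nearest to the membrane, where their PDZ domains hold glutamate receptor complexes and adhesion molecules. Dlgap proteins link the Dlg layer to Shank, a large scaffold deeper in the density, and Homer proteins form multimers that tie Shank to group I metabotropic glutamate receptors and to intracellular calcium channels. Several of these scaffolds also serve outside synapses, for example Dlg1 in the polarity of epithelial and progenitor cells.

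The libraries held between 8910724 and 16631614 counts on genes (median 12601169), so that 3 counts, taken as the detection floor, were worth between 0.183 and 0.323 CPM (counts scaled to library size with TMM factors). T0 replicate 3 stood apart from its group: a chi-square of its counts against T0 replicates 1 and 2 came to 101 and 105 per gene, against 3.28 between replicates 1 and 2. Neuronal markers (Tubb3, Dcx, Rbfox3, Snap25, Syt1, Gad1) summed to 14.0-45.0 CPM at T0, 389-441 at T1, 467-605 at T2, and 781 and 388 in T3 replicates 1 and 4. From T1 on this sum rested mainly on Dcx and Tubb3. Snap25, Syt1 and Rbfox3 reached at most 3.09, 1.30 and 2.31 CPM, each in a T2 library. Rbfox3 did not exceed 3 counts in any T0 library. Gad1, which makes GABA, measured 48.7 and 23.9 CPM in the T3 libraries numbered 1 and 4, against 4.05, 2.79 and 1.20 CPM at T0. Progenitor markers (4560-5180 CPM at T0, 3460 and 3930 at T3), astrocyte markers (1910-2880 and 1710-2040) and oligodendrocyte lineage markers (3540-3810, 5380 and 6290) were present at each time point. These sums rested mainly on Vim for the progenitor list, on Aldoc for the astrocyte list, and on Olig1 and Olig2 for the oligodendrocyte list. Gfap, an astrocyte marker, was counted 1958, 2144 and 7 times in T0 replicates 1, 2 and 3, and the oligodendrocyte markers Sox10 and Mbp had at most 45 and 15 counts in any library. Endothelial and fibroblast markers summed to at most 2.68 and 1.35 CPM, all 6 microglial markers stayed at 3 counts or fewer in every library, and dividing-cell markers fell from 1180-1800 CPM at T0 to 65.0-171 at T1 and stood at 371 and 642 at T3. In such mixed cultures fewer cells of a type and less RNA per cell cannot be told apart, and the part that these markers play in the values below was not tested.

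Dlg4 was the most abundant of the 9 transcripts at each time point, and it was highest in the proliferating cells. Dlg4, also known as PSD-95, is the main Dlg protein of mature excitatory synapses. In fragments per kilobase of transcript, scaled to sequencing depth (FPKM, the length-scaled unit in which levels of different genes can be compared) Dlg4 averaged 112 ± 9.48 at T0 (SD, n = 3), which placed it at percentile 96.3 of the 24235 genes with any FPKM. Dlg1 followed at 22.2 ± 2.16 and Homer1 at 18.5 ± 4.49, with overlapping ranges. Dlg3 at 11.0 ± 2.99, Shank3 at 6.40 ± 1.80 and Homer2 at 4.06 ± 0.728 came next, each overlapping its neighbour. Shank2 (0.465 ± 0.0936), Shank1 (0.158 ± 0.0567) and Dlg2 (0.0135 ± 0.0135) closed the order, with ranges that did not overlap.

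The order was much the same at T3, but the distances were smaller. Dlg4 remained first at 58.8 ± 21.7 FPKM (SD, n = 2). Dlg1 (18.3 ± 2.79), Dlg3 (15.1 ± 9.05), Homer1 (12.3 ± 3.86) and Shank3 (8.42 ± 3.96) each overlapped the next in the order. Homer2 at 3.67 ± 0.221 and Shank2 at 2.50 ± 1.33 FPKM stood apart from their neighbours, while Shank1 (0.588 ± 0.458) overlapped Dlg2 (0.251 ± 0.218). The 2 T3 libraries themselves were far apart in FPKM for most members, with the higher FPKM of each of the 9 in replicate 1. In CPM, replicates 1 and 4 were close for Dlg1 (75.8 and 74.8), Dlg4 (117 and 113), Homer1 (44.3 and 40.4) and Homer2 (64 and 67). Dlg2, Dlg3, Shank1, Shank2 and Shank3 were apart on both scales.

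**Figure D1:**
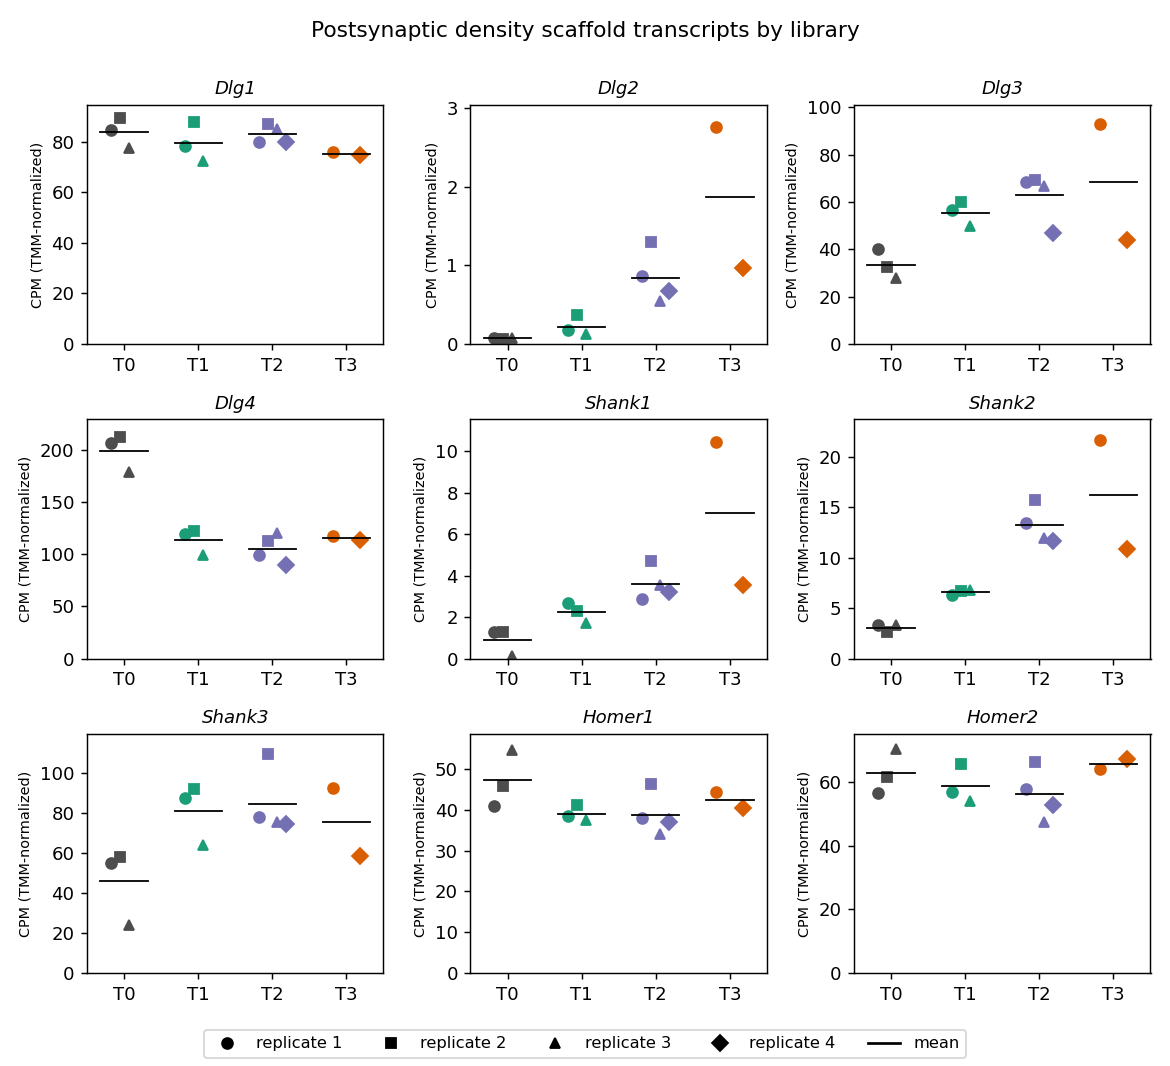
Each panel shows 1 scaffold gene, with CPM (TMM-normalized, linear axis from 0) on the y axis and time point on the x axis. Points are libraries, the marker shape gives the replicate number and the line is the group mean. Dlg4 falls from 179-212 CPM at T0 to 99.1-122 at T1, Shank2 climbs from 2.58-3.31 CPM at T0 to 11.6-15.7 at T2, and Dlg1 stays between 72.2 and 89.2 CPM in all libraries.

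Changes against T0 were tested with edgeR on counts, with adjusted p over all genes tested. At T1, 2 of the 8 members tested rose (Dlg3, Shank2) and 1 fell (Dlg4), where 15.1% of all genes tested rose and 16.8% fell. All T1 libraries lay above all T0 libraries for 4 of the 8 members (28.6% of all genes) and below for 1 (28% of all genes). At T2, 4 of 8 rose (Dlg3, Shank1, Shank2, Shank3) and 1 fell (Dlg4), against 21.4% and 21.8% of all genes, and 4 lay wholly above T0 (27% of all genes) and 1 wholly below (27.2%). At T3, 2 of 9 rose (Shank2, and Dlg2, which was testable only through its T3 counts) and 0 fell, against 3.31% and 1.41% of all genes, and 5 lay wholly above T0 (24.3% of all genes) and 2 wholly below (25.8%). The 0 falling at T3 became 1 (Dlg4) with DESeq2, and in edgeR 5 of the 9 members had an unadjusted p under 0.05 in either direction, against 26.3% of all genes. The median log2 fold change of the members tested was 0.32, 0.45 and 0.73 at T1, T2 and T3, beside -0.01, 0.00 and -0.01 for all genes tested. Dlg2 is part of the T3 median and counts only, including the 5 wholly above T0 and the 5 with an unadjusted p under 0.05. Without Dlg2 the T3 median would lie between Homer2 (0.08) and Shank3 (0.73), so the medians are not a course over the same genes. The comparisons share the T0 libraries, and T3 vs. T0 rests on 5 libraries: without T0 replicate 1, T0 replicate 2, T3 replicate 1 or T3 replicate 4 no member passed there, and without T0 replicate 3 the count was 4.

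**Figure D2:**
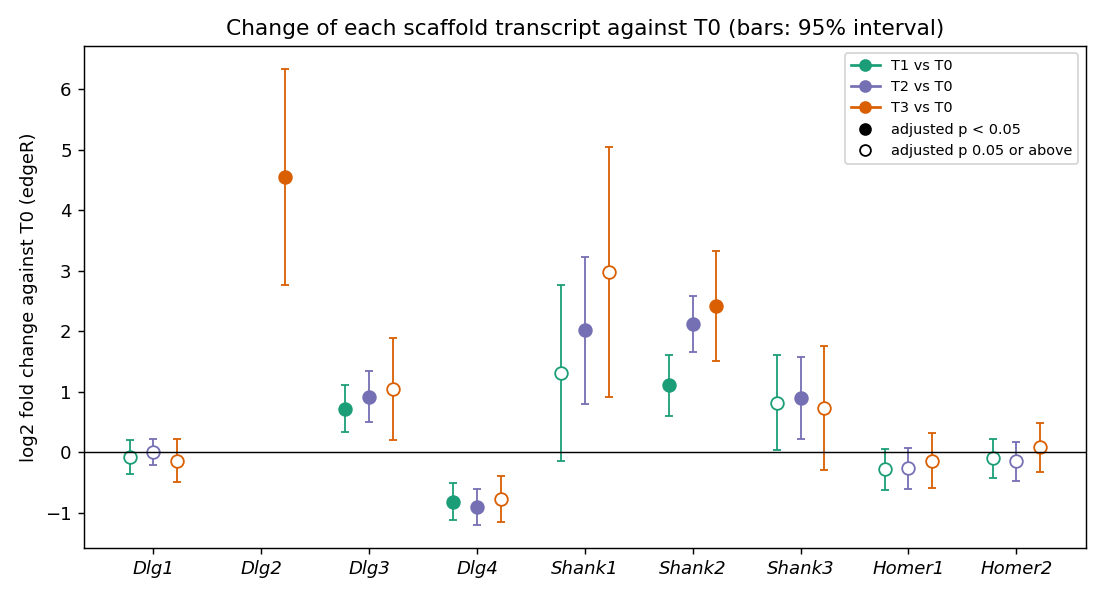
The y axis gives the edgeR log2 fold change of each scaffold gene at T1, T2 and T3 against T0, and bars are 95% intervals. Filled points have an adjusted p under 0.05. Dlg4 lies below 0 with its whole interval at each time point, the Shank2 intervals lie above 0, and those of Dlg1, Homer1 and Homer2 include 0. The fitted Dlg2 value at T3 rests on 1 count in each T0 library.

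Within the Dlg family, Dlg4 fell and Dlg3 rose at T1 and T2. Dlg4 lies on chromosome 11 (mm9 chr11:69830587-69859034, plus strand). It was measured at 206, 212 and 179 CPM in T0 replicates 1, 2 and 3, and at 120, 122 and 99.1 CPM in the T1 libraries. At T2 the 4 libraries held 99.3, 112, 120 and 89.1 CPM, and at T3 replicates 1 and 4 held 117 and 113 CPM. Every later library was thus below every T0 library, the lowest T0 value being 179 CPM. The log2 fold change was -0.82 at T1 (SE 0.13, adjusted p = 0.0047) and -0.90 at T2 (SE 0.13, adjusted p = 9e-04), that is 1.76-fold and 1.87-fold lower. At T3 it was -0.77 (SE 0.16, adjusted p = 0.053), past the threshold without a filter on low counts, with DESeq2, in 1 fit of all 12 libraries and without T0 replicate 3. Between later time points Dlg4 did not pass the test, and its log2 difference was -0.10 for T2 vs. T1 (95% interval -0.36 to 0.16) and 0.13 for T3 vs. T2 (-0.16 to 0.43).

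Dlg3, or SAP102, is the Dlg protein that prevails at immature synapses, and its gene is X-linked (chrX:97963061-98013749, plus strand). T0 libraries held 39.9, 32.6 and 27.9 CPM, T1 libraries 56.4, 60.1 and 49.8, and T2 libraries 68.4, 69.2, 66.5 and 46.8. All T1 and T2 libraries lay above all T0 libraries, with T2 replicate 4 well below the other three of its group. Dlg3 rose 1.65-fold at T1 (log2 fold change 0.72, SE 0.16, adjusted p = 0.017) and 1.89-fold at T2 (0.92, SE 0.18, adjusted p = 0.0047). The T1 call was lost without T0 replicate 2 (adjusted p = 0.051), T1 replicate 1 (0.071) or T1 replicate 2 (0.075). On the deposited FPKM the same differences were 0.49 and 0.47 on the log2(FPKM + 1) scale and did not pass in limma. At T3, with 92.9 CPM in replicate 1 and 44.0 CPM in replicate 4, the fitted difference was 1.05 (SE 0.34, adjusted p = 0.12).

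Dlg1, or SAP97, which also traffics glutamate receptors along the secretory pathway, did not pass the test in any comparison (chr16:31663529-31873436, plus strand). The lowest of all 12 libraries held 72.2 CPM, in T1, and the highest 89.2 CPM, in T0. Its log2 difference from T0 was -0.08 at T1 (95% interval -0.37 to 0.20), 0.00 at T2 (-0.22 to 0.22) and -0.14 at T3 (-0.50 to 0.22). At T2 the 95% interval of this fit thus reached 0.22 on the log2 scale in either direction.

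Dlg2, or PSD-93, was close to the detection floor in proliferating cells and was the least abundant member at each time point (chr7:97650473-99595513, plus strand). It had 1 count in each of the 3 T0 libraries, then 2, 5 and 2 counts at T1, 9, 14, 6 and 11 at T2, and 33 and 9 in T3 replicates 1 and 4. The counts were thus higher in each later library than in any T0 library. The ratio of summed counts to T0, scaled to library size, was 3.03 at T1 (95% counting interval 0.757-17.4), 11.5 at T2 (3.66-58.1) and 27.6 at T3 (8.82-139), where the interval covers counting error only. Dlg2 was too low for the filter at T1 and T2 and entered the test only through its T3 counts, where it passed (adjusted p = 0.033), so the call adds little to the counts. It did not pass without T0 replicate 1, T0 replicate 2 or T3 replicate 4 (adjusted p = 0.12, 0.13 and 0.069) and was not tested without T3 replicate 1. At T2 it passed with no filter on low counts, with DESeq2 and in 1 fit of all 12 libraries.

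The 4 Dlg genes are close paralogs that differ at their start, where cysteines that are known to be palmitoylated anchor Dlg4 and Dlg2 in the membrane. The first 30 coding bases of the longest annotated coding transcript of each are given, with cysteine codons in capitals. They were read from the NCBIM37 (mm9) genome, plus strand, 5′ to 3′. The Dlg3 start holds cysteine codons as well, and the capitals mark the codon only, not whether the residue is palmitoylated.
Dlg1 (chr16:31664938-31665671, across an intron): atgccggtccggaagcaagatacccagaga
Dlg2 (chr7:98239517-98239546): atgttctttgcaTGTtatTGTgcactccgg
Dlg3 (chrX:97963411-97963440): atgcacaagcaccagcacTGCTGTaagTGC
Dlg4 (chr11:69832422-69832451): atggacTGTctcTGTatagtgacaaccaag
These are starts of single annotated isoforms. Counts were summed over all transcripts of a gene (13 annotated for Dlg4, 16 for Dlg1), so the values above do not tell which start was used, and reads shared by paralogs may have been left out of them.

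Within the family, the share of Dlg4 was lower and the shares of Dlg1 and Dlg3 were higher after T0. Of the summed Dlg FPKM, Dlg4 took 77.2% ± 1.79 at T0 (SD, n = 3), 63.8% ± 1.36 at T1 (n = 3), 64.4% ± 1.70 at T2 (n = 4) and 63.5% ± 0.272 at T3 (n = 2). The lowest T0 library, at 75.2%, lay above the highest later one, at 66.8%. The Dlg3 share was 7.50% ± 1.48 at T0 and 14.9% ± 1.93, 15.3% ± 2.22 and 15.6% ± 4.09 at T1, T2 and T3. The Dlg1 share was 15.3% ± 0.607 at T0 and 21.3% ± 1.12, 20.2% ± 2.95 and 20.6% ± 4.51 later. Dlg2 stayed under 0.35% in every library. The summed Dlg level was 145 ± 14.0 FPKM at T0 and 105 ± 10.9, 102 ± 16.4 and 92.5 ± 33.7 FPKM at T1, T2 and T3. The T3 libraries, at 116 and 68.6 FPKM, were both below the lowest T0 library at 129 FPKM. On CPM this did not hold: T3 replicates 1 and 4 summed to 289 and 233 CPM, and the T0 libraries to 284-334 CPM.

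**Figure D3:**
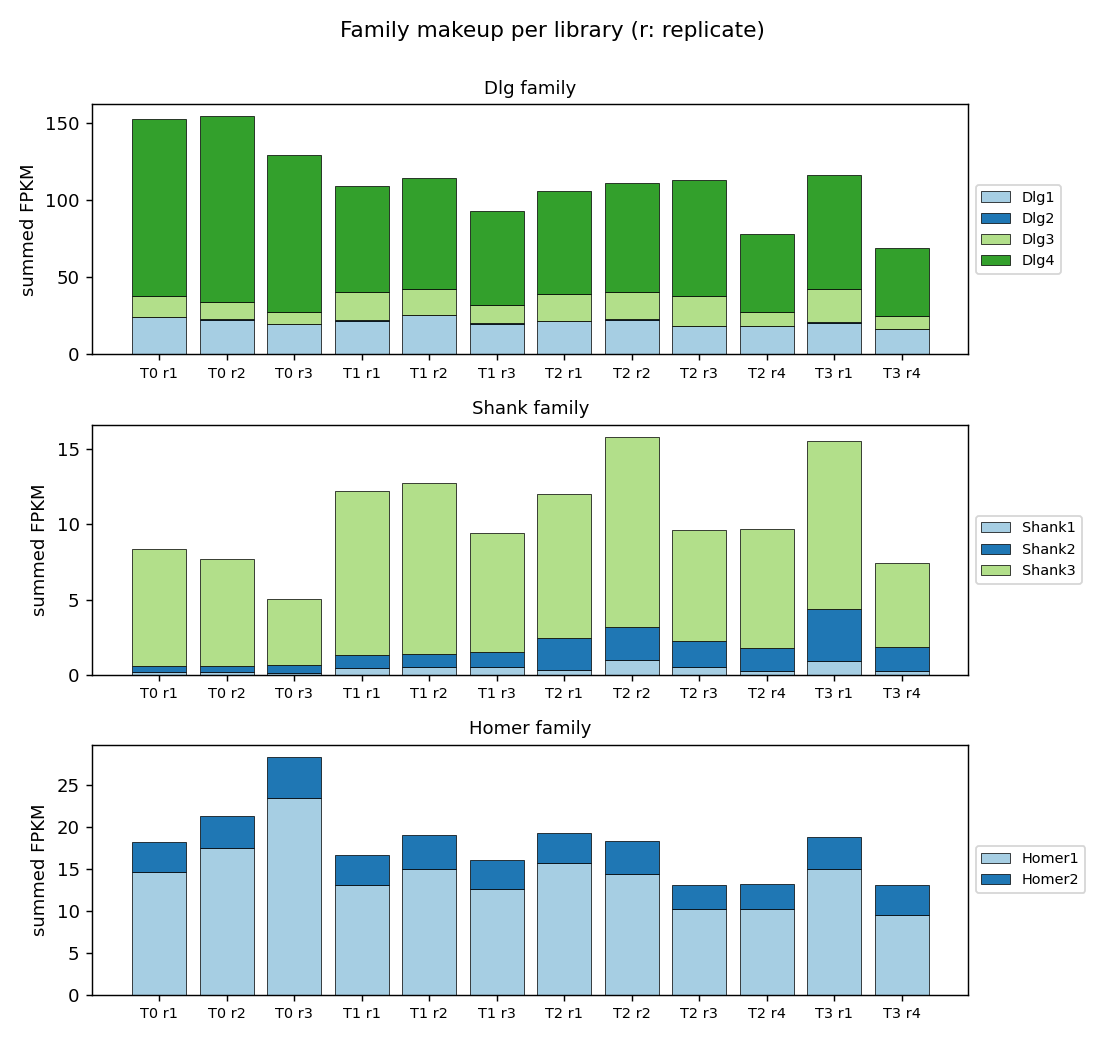
Stacked bars give the summed FPKM (linear axis from 0) of the Dlg, Shank and Homer families in each of the 12 libraries (r, replicate), and colours give the members. Dlg4 makes up most of each Dlg bar, 77.2% on average at T0 and 63.5% at T3. The Shank2 part of the Shank bar grows from 7.22% at T0 to 21.6% at T3, and Homer1 makes up most of each Homer bar.

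All 3 Shank transcripts rose by T2, and Shank2 rose at T1 and T3 as well. Shank2 (chr7:151187833-151610399, plus strand) held 3.30, 2.58 and 3.31 CPM in the T0 libraries and 6.29, 6.73 and 6.83 CPM in the T1 libraries. The T2 libraries held 13.5, 15.7, 11.9 and 11.6 CPM, and T3 replicates 1 and 4 held 21.6 and 10.9 CPM. The ranges of T0, T1 and T2 were separate and ascending, while T3 spanned the whole T2 range. Shank2 rose 2.15-fold at T1 (log2 fold change 1.10, SE 0.21, adjusted p = 0.0097), 4.34-fold at T2 (2.12, SE 0.20, adjusted p = 0.00015) and 5.35-fold at T3 (2.42, SE 0.37, adjusted p = 0.031). The T3 call was lost without any 1 of the other libraries than T0 replicate 3 (adjusted p from 0.069 to 0.21), and on FPKM in limma. At T2 it held in each alternative tried, and at T1 in each except limma on log2(FPKM + 0.1).

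Between T1 and T2, that is from medium D1 to medium B, Shank2 was the 1 member of 8 tested that passed, where 0.573% of all genes rose and 0.0565% fell. It rose 2.00-fold (log2 fold change 1.00, SE 0.15, adjusted p = 0.023). The call was lost without T1 replicate 1 (adjusted p = 0.14), T1 replicate 2 (0.050), T1 replicate 3 (0.059) or T2 replicate 1 (0.085), in 1 fit of all 12 libraries and on FPKM. The direction was the same in each of these. From T2 to T3, 0 of 9 members passed in edgeR or DESeq2, against 0.5% of all genes higher and 0.691% lower. At an unadjusted p under 0.05 there were 2, Dlg2 and Shank1, against 17% of all genes.

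Shank1 (chr7:51565623-51613721, plus strand) was near the floor in part of the T0 group, with 17, 18 and 2 counts. T1 libraries held 31, 31 and 28 counts, T2 libraries 30, 51, 39 and 52, and T3 replicates 1 and 4 held 125 and 33. In CPM the T0 libraries were at 1.28, 1.26 and 0.141, the 2 counts being those of the library that stood apart, and each later library was above them. The log2 fold change was 2.02 at T2 (SE 0.53, adjusted p = 0.016), 1.31 at T1 (SE 0.61, adjusted p = 0.14) and 2.99 at T3 (SE 0.84, adjusted p = 0.096). On FPKM the T2 difference did not pass (adjusted p from 0.097 to 0.15). Without T0 replicate 3 the count-based differences were 1.50 at T2 (adjusted p = 0.0019), 0.79 at T1 (0.059) and 2.49 at T3 (0.046). The difference from T2 to T3 was 0.98 (SE 0.40, adjusted p = 0.25), and it was 1.53 (adjusted p = 0.047) without T3 replicate 4 and -0.0031 without T3 replicate 1.

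Shank3 (chr15:89330054-89390692, plus strand) was the main Shank transcript at each time point. T0 libraries held 55.3, 58.3 and 24.1 CPM, T1 libraries 87.6, 92.2 and 64.0, and T2 libraries 78.0, 110, 75.5 and 74.8. T3 replicates 1 and 4 held 92.6 and 58.6 CPM, the latter barely above the highest T0 library at 58.3. Shank3 rose 1.86-fold at T2 (log2 fold change 0.90, SE 0.30, adjusted p = 0.038), a call lost without any 1 T2 library (adjusted p from 0.064 to 0.098) and on FPKM. At T1 the difference was 0.82 (SE 0.33, adjusted p = 0.099) and at T3 0.73 (SE 0.42, adjusted p = 0.32). Here too T0 replicate 3 was the low library, and without it the differences were smaller but less spread, 0.51 at T1 (adjusted p = 0.019) and 0.59 at T2 (adjusted p = 0.011). An antisense gene lies inside Shank3 in the annotation, and the strand setting of the counting was not given in the sources used here.

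All 3 Shank proteins carry the short proline-rich stretch that is bound by the EVH1 domain of Homer, which makes the Shank-Homer link. The coding bases of that stretch are shown to compare the members, read from NCBIM37, plus strand, 5′ to 3′, with the codons of its core (proline, proline, any residue, glutamate, phenylalanine) in capitals.
Shank1 (chr7:51608942-51608971): ccgctgcctCCACCCCTGGAGTTTtccaat
Shank2 (chr7:151597022-151597051): ccgttgcctCCCCCCCTGGAATTCgccaat
Shank3 (chr15:89379625-89379654): ctagtgccaCCCCCTGAAGAGTTTgccaat
Each window lies within 1 exon of the transcript read. The counts do not tell which of the annotated transcripts (7 for Shank1, 6 for Shank2, 7 for Shank3) were present.

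Within the Shank family, the mean share of Shank2 was larger and that of Shank3 smaller at each later time point. Of the summed Shank FPKM, Shank2 took 7.22% ± 3.62 (SD, n = 3) in T0, 8.41% ± 2.01 (n = 3) in T1, 16.2% ± 1.78 (n = 4) in T2 and 21.6% ± 0.781 (n = 2) in T3. The T0 and T1 ranges overlapped (4.82-11.4% and 7.06-10.7%), and both lay below the T2 range (14.0-17.8%). Shank3 took 90.6% ± 3.31, 87.4% ± 2.91, 79.6% ± 2.02 and 73.8% ± 2.42 at T0, T1, T2 and T3. The summed Shank level was 7.03 ± 1.76 FPKM at T0 and 11.5 ± 1.77, 11.8 ± 2.93 and 11.5 ± 5.74 FPKM at T1, T2 and T3, with T3 replicate 4 (7.45 FPKM) within the T0 range.

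The Homer transcripts did not pass the test at any time point. Homer1 (chr13:94073712-94174917, plus strand) ranged from 34.0 CPM, in T2, to 54.7 CPM, in T0 replicate 3, over the 12 libraries. Its log2 difference from T0 was -0.28 at T1 (95% interval -0.62 to 0.06), -0.27 at T2 (-0.61 to 0.08) and -0.14 at T3 (-0.60 to 0.32), with adjusted p of 0.17, 0.18 and 0.67. Homer2 (chr7:88745367-88851811, minus strand) ranged from 47.6 CPM, in T2, to 70.4 CPM, in T0 replicate 3. Its log2 difference was -0.10 at T1 (-0.42 to 0.22), -0.15 at T2 (-0.47 to 0.17) and 0.08 at T3 (-0.32 to 0.48), with adjusted p of 0.60, 0.42 and 0.78. A short Homer1 form that lacks the coiled coil is known to be induced by neuronal activity, and gene counts do not separate it from the long forms. Homer3, the remaining gene of the family, was at 49.0, 47.1, 44.6 and 38.9 CPM on average at T0, T1, T2 and T3 and did not pass either (adjusted p = 0.67, 0.39 and 0.24 against T0).

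Whether Homer1 or Homer2 prevailed depended on the scale. By FPKM, Homer1 took 81.9% ± 1.06 of the pair at T0 and 78.5% ± 0.0787, 78.9% ± 1.72 and 76.4% ± 4.67 later, and the T0 range (80.7-82.8%) lay above that of T1 (78.4-78.6%) and overlapped that of T2 (77.3-81.3%). By CPM, which ignores length, Homer1 took 42.8% ± 0.897 at T0 and 39.9%, 40.9% and 39.2% later. The longest annotated Homer2 transcript spans 10999 bases and the longest Homer1 transcript 5713. The median CPM per FPKM was 16.2 for Homer2 and 2.94 for Homer1, a wider gap than that between these lengths. The lengths used for the deposited FPKM are not given in the sources used here. The FPKM level and rank of Homer2 and the Homer1 share by FPKM are therefore uncertain.

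Over the 12 libraries, the members fell into groups that varied together, given here as a description, since the libraries share time points and one culture system. In log2 CPM, Shank1 and Shank3 had a Pearson r of 0.87, Shank1 and Dlg3 of 0.87, Shank2 and Dlg3 of 0.86, and Homer1 and Homer2 of 0.84. Dlg4 ran against Shank2 (r = -0.81) and Dlg3 (-0.63). Among the 11528 genes that reached a minimum mean log2 CPM of 1, the pattern of Dlg4 was most like those of Eml1 (r = 0.995) and Rad51c (0.97), and that of Dlg3 most like Arhgap33 (0.97) and Gga3 (0.97). For Shank1 the closest were Disp2 and Fam131b (both 0.98), for Shank2 Pcsk2 and Star (both 0.98), and for Shank3 Pcdhb2 (0.99) and Dapk1 (0.98). Homer1 was closest to Btaf1 and Smchd1 (both 0.95) and Homer2 to Spna2 (0.93) and Pcgf3 (0.92). For Dlg1 the nearest were Napepld (0.89) and B130034C11Rik (0.81). Dlg2 was below the minimum level for this search.

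Other scaffolds of the postsynaptic density were followed beside the members. Of a list of 32 such genes, 31 were in the count table and 28 were tested. In that list 6 rose and 1 fell at T1 (15.1% and 16.8% of all genes), 9 rose and 2 fell at T2 (21.4% and 21.8%), and 3 passed at T3, each higher (3.31% of all genes). At T3, 10 of the 28 had an unadjusted p under 0.05, where 26.3% of all genes did. Dlgap4 averaged 82.6, 79.7 and 71.6 FPKM at T1, T2 and T3, above the Dlg4 averages, with overlapping ranges at each. In T3 replicate 1 Dlgap4 was at 72.5 FPKM and Dlg4 at 74.1, and in T3 replicate 4 they were at 70.65 and 43.4. The median log2 fold change of the list was 0.27, 0.31 and 0.29. At T2 the 9 were Dlgap1, Dlgap4, Magi1, Magi2, Cask, Lin7a, Akap5, Kalrn and Anks1b, and the 2 were Baiap2 and Lin7c.

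Dlgap1 and Dlgap4, of the family that bridges Dlg to Shank, rose from very different levels. Dlgap1 had 15, 13 and 3 counts at T0, 11, 19 and 13 at T1, 40, 38, 26 and 55 at T2, and 235 and 83 at T3. The log2 fold changes from T0 were 0.49 at T1 (SE 0.57, adjusted p = 0.53), 2.14 at T2 (SE 0.46, adjusted p = 0.0064) and 4.26 at T3 (SE 0.67, adjusted p = 0.032). Dlgap4 was at 74.0-81.0 CPM at T0 and 146-159 at T1, and rose 1.97-fold at T1 (adjusted p = 0.001), 2.08-fold at T2 (adjusted p = 0.00013) and 1.88-fold at T3 (adjusted p = 0.034).

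Lin7a and Cask belong to the Cask-Lin7-Mint complex, which acts on both sides of the synapse. Lin7a rose 4.32-fold at T1 (adjusted p = 0.00091), 5.20-fold at T2 (adjusted p = 0.00016) and 6.46-fold at T3 (adjusted p = 0.018). Cask rose 1.74-fold at T1 (adjusted p = 0.0074) and 1.97-fold at T2 (adjusted p = 0.00016), and was 2.25-fold higher at T3 without passing (adjusted p = 0.055). Kalrn, an exchange factor of dendritic spines, rose 6.35-fold at T1 (adjusted p = 0.006) and 6.10-fold at T2 (adjusted p = 0.0013), from 11.6, 12.8 and 3.53 CPM at T0 to 46.2-71.7 CPM at T1. Anks1b rose 5.20-fold at T2 (adjusted p = 0.007), and Magi2 1.57-fold at T1 (adjusted p = 0.026) and 1.50-fold at T2 (adjusted p = 0.015). Baiap2, or IRSp53, which binds Shank and Dlg4 and shapes the membrane, fell 1.56-fold at T1 (adjusted p = 0.024) and 1.75-fold at T2 (adjusted p = 0.0016), like Dlg4. The T1 call of Magi2 was lost without any 1 T1 library and that of Baiap2 without T1 replicate 1 or 2. On FPKM in limma, the calls of Cask and Magi2 and the T1 call of Baiap2 were lost. The T3 calls of Dlgap1, Dlgap4 and Lin7a were each lost without any 1 library other than T0 replicate 3, and on FPKM in limma.

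**Figure D4:**
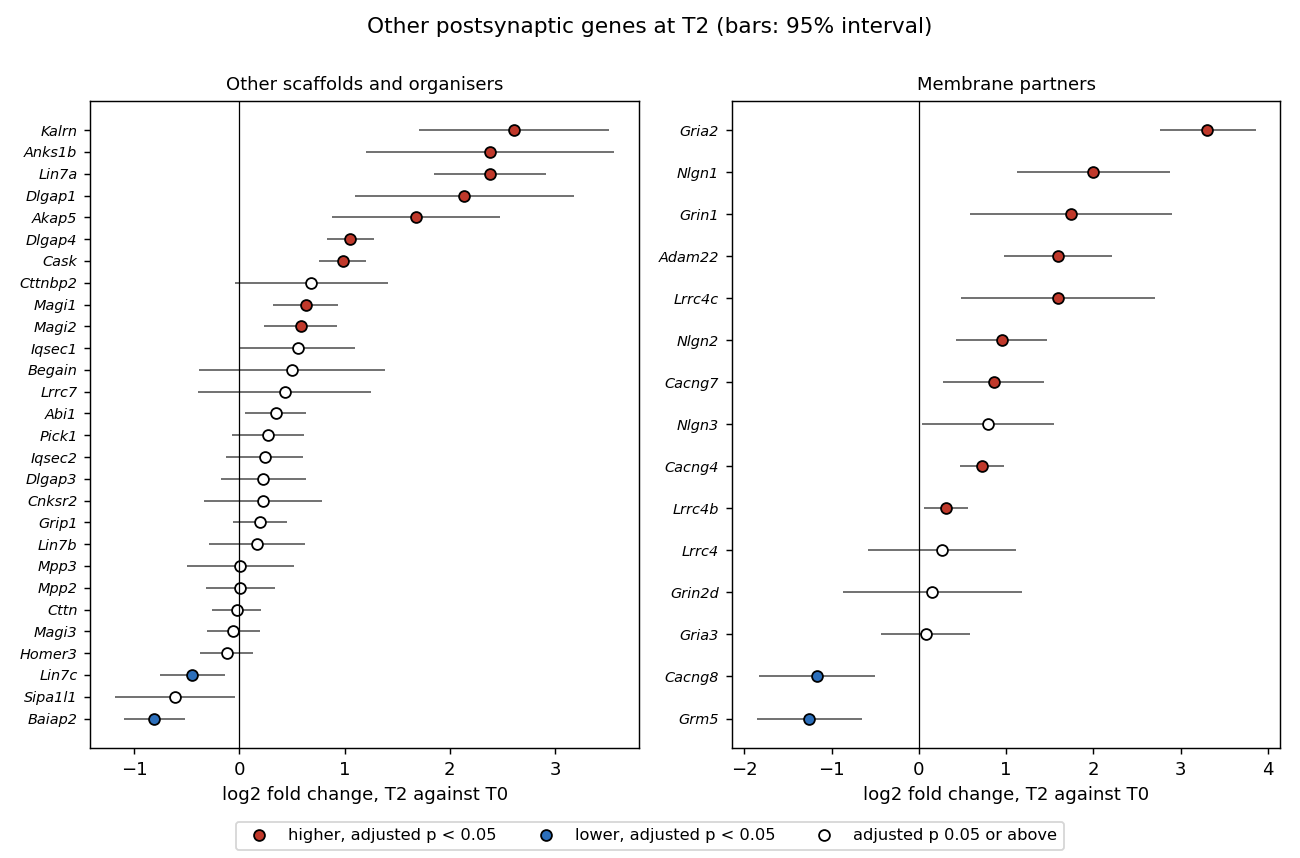
The x axis gives the edgeR log2 fold change at T2 against T0 for the tested genes of both lists, other scaffolds on the left and membrane partners on the right, with 95% intervals as bars. Filled points have an adjusted p under 0.05. In the left panel 9 genes rise and 2 fall, and in the right panel 9 rise, led by Gria2 at 3.31, and 2 fall (Cacng8, Grm5).

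The membrane proteins that the scaffolds hold were unevenly present. Of 23 listed receptor, auxiliary and adhesion genes, 14 were tested at T1 (6 rose, 3 fell, against 15.1% and 16.8% of all genes) and 15 at T2 (9 rose, 2 fell, against 21.4% and 21.8%). At T3 16 were tested, of which 3 passed, each higher (3.31% of all genes), and 9 had an unadjusted p under 0.05 (26.3% of all genes). Both T3 counts include Gria4, which was testable only through its T3 counts. Median log2 fold changes were 0.58, 0.80 and 0.86 over the 14, 15 and 16 genes tested, and so not over the same genes. The NMDA receptor subunits, the classical partners of Dlg4 and Dlg3, were scarce: Grin2b never exceeded 3 counts in a library, Grin2a 9, Grin2c 5 and Grin2d 32. Grin1, the obligatory subunit, had 10, 8 and 3 counts at T0, 13, 26, 10 and 35 at T2, and 40 and 16 at T3, and was too low to be tested at T1. The TARPs Cacng2 and Cacng3, which link AMPA receptors to Dlg4, had at most 1 count and 0 counts in any library. Of the other listed TARPs, Cacng8 was low, at 2.78-5.22 CPM at T0. Cacng4 was at 52.1, 53.5 and 62.1 CPM at T0 and rose 1.48-fold at T1 (adjusted p = 0.02) and 1.65-fold at T2 (adjusted p = 0.0013). Cacng7, at 43.2, 40.5 and 18.8 CPM at T0, rose 1.81-fold at T2 (adjusted p = 0.027). The T1 call of Cacng4 was lost without any 1 library other than T0 replicate 3, and the Cacng7 call without any 1 T2 library. On FPKM in limma the T1 call of Cacng4 was lost as well, and that of Cacng7 when no filter was used.

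AMPA receptor subunits differed from each other. T0 libraries held 35.9, 31.1 and 21.6 CPM of Gria2 and T1 libraries 220, 265 and 149 CPM, and it rose 7.14-fold at T1 (adjusted p = 0.00079), 9.89-fold at T2 (adjusted p = 7.3e-05) and 9.64-fold at T3 (adjusted p = 0.03). Gria1 did not exceed 3 counts in a library. Gria3 fell 1.95-fold at T1 (adjusted p = 0.011) and rose 2.68-fold at T3 (adjusted p = 0.025). The T3 calls of Gria2 and Gria3 were lost without any 1 library other than T0 replicate 3, and the T1 call of Gria3 without T1 replicate 1. Both T3 calls were also lost on FPKM in limma. Grm5, the metabotropic receptor that Homer binds, was at 137, 137 and 145 CPM at T0 and 42.1, 46.9 and 60.7 CPM at T1, and fell 2.81-fold at T1 (adjusted p = 0.001) and 2.39-fold at T2 (adjusted p = 0.0062). Its T3 difference was -0.79 on the log2 scale (adjusted p = 0.10). Cacng8 fell 2.97-fold at T1 (adjusted p = 0.019) and 2.25-fold at T2 (adjusted p = 0.013), and the T1 call was lost without T1 replicate 2 or 3.

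Among adhesion partners of the Dlg PDZ domains, Nlgn1, the neuroligin of excitatory synapses, rose 3.87-fold at T1 (adjusted p = 0.016) and 4.00-fold at T2 (adjusted p = 0.0039), from 22.7, 25.3 and 6.77 CPM at T0 to 66.2-78.8 CPM at T2. Adam22, the receptor of the secreted protein Lgi1, rose 2.48-fold at T1 (adjusted p = 0.021) and 3.02-fold at T2 (adjusted p = 0.0023). At T1 the Nlgn1 call was lost without any 1 T1 library and the Adam22 call without T1 replicate 1 or 2. The T1 call of Adam22 was also lost on FPKM in limma. For comparison, organisers of inhibitory synapses were followed. Nlgn2 rose 1.81-fold at T1 (adjusted p = 0.049) and 1.93-fold at T2 (adjusted p = 0.011), and Gphn, or gephyrin, fell 1.26-fold at T2 (adjusted p = 0.032). The Gphn call was kept in 2 of the 7 repeats that left out 1 library, and the T1 call of Nlgn2 in 2 of 6. The T1 call of Nlgn2 was also lost on FPKM in limma and with at least 10 counts in every library. At T3 neither passed (adjusted p = 0.19 for Nlgn2 and 0.42 for Gphn). Adam22, Nlgn1 and Nlgn2 were, like Shank1 and Shank3, lowest in T0 replicate 3.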

How the data were processed

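RNA of 12 ANS cell libraries (TruSeq kit v2, polyA+, HiScanSQ) was processed by the authors. Per the submitters' processing notes, the tools were CASAVA 1.8, TopHat2 2.0.6, Bowtie 0.12.7.0, HTSeq 0.6.0 and DESeq2 1.0.0, with build mm9. The deposited counts are raw counts per gene for each library, and the deposited FPKM table holds length-scaled values whose tool is not given in the sources used here. HTSeq-style counting leaves out reads that fit several genes. The 5 entries that name no gene were kept out of library sizes: reads on no feature came to 13.3-24.1% of the total and ambiguous reads to 0.68-0.903%.

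Groups followed the sample titles. Counts were tested with edgeR 4.0.16 (TMM, filterByExpr, quasi-likelihood test, Benjamini-Hochberg over all genes tested, threshold 0.05) on the libraries of the 2 groups compared, in R 4.3.3. The script was tested on simulated data. FPKM levels and family shares were described without a test. Alternatives were other normalization and filters, DESeq2 1.42.0, 1 fit of all 12 libraries, limma 3.58.1 on log2(FPKM + 1) and log2(FPKM + 0.1), the replicate block and leaving out each library. For T2 vs. T1, libraries with the same number deviated together (r = 0.23, 0.40 and 0.35), but no label states that the numbers pair samples. The deviations were taken from the mean of the libraries numbered 1 to 3 in each group, so few that these r values cannot settle a pairing. The reported test does not use the number, and the fit with the number as a block is an alternative. The members and gene lists were chosen with earlier results of these data known. Named were all 9 members and, per list, up to 8 genes past the threshold in the most comparisons with the largest changes (all of a list of 3, except items not reported here); other genes named were chosen after their values were seen. Sequences were read from the NCBIM37 genome with its GENCODE annotation.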

Additional observations from a re-analysis of the deposited data

Results flagged for a closer look

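Outlying libraries were sought in T2, the group with 4 libraries, for the 9 genes on 2 scales (18 screens, of which chance flags about 1 in 20), and 3 values stood out by the gap to their nearest neighbour. Dlg3 was at 46.8 CPM in T2 replicate 4, where the nearest other library held 66.5 CPM, and the same library was at 9.32 FPKM against 17.3 FPKM. Shank3 was at 109.7 CPM in T2 replicate 2, where the nearest other library held 78.0 CPM. Without T2 replicate 2 the Shank3 difference between T2 and T0 was 0.75 on the log2 scale (adjusted p = 0.098 in edgeR, against 0.038 with it).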

How the results depend on the processing

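For T1 vs. T0, 3 members passed, and the count was 1 with limma on log2(FPKM + 0.1), 5 with libraries numbered 1 and 2 only, and 2-4 when leaving out 1 library. For T2 vs. T0, 5 passed, and the count was 2 with limma on log2(FPKM + 1) and log2(FPKM + 0.1), 3 with limma without a filter, and 4-6 when leaving out 1 library. For T3 vs. T0, 2 passed, and the count was 4 without a filter on low counts, 1 with at least 10 counts in every library, 5 with DESeq2, 5 in 1 fit of all 12 libraries, 0 in each limma fit, and 0-4 when leaving out 1 library. For T2 vs. T1, 1 passed, with 0 in 1 fit of all 12 libraries and in each limma fit and 0-1 when leaving out 1 library. For T3 vs. T2, 0 passed, with 0-1 when leaving out 1 library. Over all genes, the counts higher and lower, and their ranges over all alternatives, were 1871 (810-3733) and 2078 (940-3729) for T1 vs. T0, 2704 (1622-3441) and 2751 (1535-3426) for T2 vs. T0, 421 (0-2000) and 179 (0-1865) for T3 vs. T0, 71 (2-234) and 7 (0-70) for T2 vs. T1, and 63 (1-832) and 87 (0-515) for T3 vs. T2. The cause of these differences was not tested.

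With the replicate number as a block, 4 members passed for T1 vs. T0 (Shank3 added), 4 for T2 vs. T0 (Shank1 lost, adjusted p = 0.065), 1 for T2 vs. T1 and 0 for T3 vs. T2. Of the other genes named, the block ended the calls of Cacng8 at T1 and T2 and of Cacng7 and Gphn at T2. Same-numbered libraries did not deviate together in T1 vs. T0 (r = -0.004, 0.16 and 0.10) or T2 vs. T0 (r = -0.17, -0.012 and -0.13). No paired analysis was possible for T3 vs. T0 because the groups share 1 number.

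Among the differences given (all members against T0, Shank1 and Shank2 for T2 vs. T1, Dlg2 and Shank1 for T3 vs. T2), the sign reversed in Dlg1, Homer2 and Shank1, in comparisons they did not pass. Dlg1 at T1 was 0.012 (log2(FPKM + 1), with or without filter) and 0.013 (log2(FPKM + 0.1)). Dlg1 at T2, 0.002 in the reported fit, was -0.0038 with DESeq2 size factors, -0.027 without a filter, -0.012 with DESeq2, -0.0021 in 1 fit of all 12 libraries, -0.13 in each limma fit, -0.045 with libraries numbered 1 and 2 and -0.050 to 0.045 when leaving out 1. Homer2 was 0.057 at T1 and 0.086 at T2 with libraries numbered 1 and 2, and -0.11 (+ 1) and -0.13 (+ 0.1) at T3 in limma. Shank1 for T2 vs. T1 was -0.014 with log2(FPKM + 0.1), and for T3 vs. T2 -0.0031 to 1.53 when leaving out 1 library.

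On CPM, the Dlg4 share was 62.9%, 45.6%, 41.7% and 44.6% at T0, T1, T2 and T3, the Shank3 share 83.4% at T2 and 77.3% at T3, and the Homer1 share 42.8%, 39.9%, 40.9% and 39.2%. Dlg2, Shank1 at T0 and the NMDA receptor subunits rest on few counts, and T3 on 2 libraries.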

Other observations

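Between T2 and T3, in the same medium, 1 of 28 other scaffolds and 2 of 16 membrane partners tested passed in edgeR, each higher. Of all genes, 0.5% rose and 0.691% fell. At an unadjusted p under 0.05 there were 1 and 3 in the lists, against 17% of all genes. Gria4, among those that passed, was testable only through its T3 counts. Gria4, an AMPA receptor subunit, had 3, 0 and 0 counts at T0, 1, 2 and 0 at T1, and 5, 2, 7 and 9 at T2, and 450 and 85 in T3 replicates 1 and 4. Against T0 the ratio of its summed counts, scaled to library size, was 351 at T3 (95% counting interval 120-1710). Gria3 was at 29.2, 20.1, 22.8 and 15.7 CPM at T2 and at 56.8 and 54.4 CPM at T3, 2.53-fold higher in edgeR (adjusted p = 0.039). Dlgap1 was at 3.82, 3.52, 2.37 and 3.38 CPM at T2 and at 19.7 and 8.93 CPM at T3, 4.37-fold higher (adjusted p = 0.036). In T3 replicate 1 the counts of Gria4 and Dlgap1 were the higher ones, as was the summed level of neuronal markers (781 against 388 CPM). The Dlgap1 call was lost without any 1 of the 4 T2 libraries, and the Gria3 call without T2 replicate 2, 3 or 4. Both were also lost with the replicate number as a block and on FPKM in limma, and the Dlgap1 call in 1 fit of all 12 libraries.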
